A study of Mus musculus with 2 samples.

Results

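Genes that make, break down or respond to retinoic acid were followed through single cells of the mouse eyecup at embryonic stage E13.5. The members, chosen by gene symbol from the feature lists of the count tables, were Aldh1a1, Aldh1a2, Aldh1a3, Cyp26a1, Cyp26c1, Rdh10, Dhrs3 and Rarb, which are 8 of 31053 listed features. All 8 had at least 1 UMI (unique molecular identifier, a tag that counts each captured RNA molecule once), and 6 of them, all except Aldh1a2 and Cyp26c1, had at least 200 UMIs over the clusters compared.

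Eyecups with retina, lens and blood were dissociated with papain and profiled on the 10x 3′ platform, with 1 library from each genotype. The control embryo, a littermate, was Six3+/-;Six6+/-, so it carried 1 null allele of each gene and was not wild type. The DKO embryo was Six3F/F;Six6-/-;a-Cre. Its Six6 was deleted in the germline, whereas Six3 was deleted only where a-Cre, a retinal Cre transgene that also makes GFP, is active, which is the peripheral retina and not its centre. The DKO embryo was picked by its GFP-positive rosettes. DKO tissue therefore mixed cells with and without Six3, and the counts listed no Cre feature that would separate them. Because each genotype was 1 library of 1 embryo, no test between genotypes was possible, and the embryo, dissection and genotype cannot be told apart. All intervals are 95% intervals for counting error only.

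After cell filtering, 9822 control and 12146 DKO cells remained, with medians of 7620 and 5879 UMIs per cell, and 22 cell barcodes occurred in both libraries. Cells fell into 22 clusters, and those that matched fixed marker lists were named with the word like. Six6, the germline target, was at 376 UMIs per 1000000 UMIs (CPM) in control naive progenitor-like cells and at 45.0 CPM in DKO ones. Six3 was at 307 and 249 CPM in the same cells.

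Retinoic acid is made from vitamin A in consecutive oxidations. Rdh10 turns retinol into retinaldehyde, Dhrs3 carries out the reverse step, and the retinaldehyde dehydrogenases Aldh1a1, Aldh1a2 and Aldh1a3 make retinoic acid, which the Cyp26 enzymes oxidize for removal. The acid binds nuclear receptors, among them the product of Rarb, and Rarb, Cyp26a1 and Dhrs3 are themselves known to be induced by it. In the embryonic mouse eye Aldh1a1 is known as a dorsal and Aldh1a3 as a ventral retinal gene, Cyp26a1 and Cyp26c1 mark the zone between them, and Aldh1a2 belongs to mesenchyme around the eye.

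The genes lie on 6 chromosomes in GRCm38 (mm10, GENCODE). Rdh10 spans chr1:16105774-16133734 on the plus strand, Dhrs3 spans chr4:144892827-144928209 on the plus strand, and Aldh1a3 spans chr7:66390890-66427517 on the minus strand. Aldh1a2 spans chr9:71215789-71296243 on the plus strand and Rarb spans chr14:16430839-16819156 on the minus strand. The other 3 members sit on chromosome 19, all on the plus strand, namely Aldh1a1 at chr19:20492715-20643465, Cyp26c1 at chr19:37685581-37693398 and Cyp26a1 at chr19:37697798-37701536. The paired Cyp26 genes are separated by 4399 bases. Aldh1a7, a close relative of Aldh1a1 on the same chromosome, is identical to it at 83.57% of aligned bases in the last 300 bases of the transcripts, so reads that fit both could be miscounted. Aldh1a7 was at 9.6 CPM in control and 5.58 CPM in DKO naive progenitor-like cells. It was at 33.5 and 21.5 CPM in ciliary margin-like, 38.7 and 23.1 CPM in pigment epithelium-like and 90.2 and 183 CPM in lens-like cells. The share of miscounted reads was not tested.

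Promoter windows of 300 bases (250 before and 50 after a start site, RefSeq on GRCm38.p6) were given for 6 of the 8 members, in 9 windows. Each was searched on both strands for a pair of receptor half-sites (the letters AGGTCA, the variant AGTTCA, and the forms GGGTCA and also GGTTCA) repeated in the same direction with 5 bases between them, the spacing classically bound by retinoic acid receptors with their RXR partners. The windows of Rarb (chr14:16575427-16575726, minus strand, inside the span of the gene) and Cyp26a1 (chr19:37697558-37697857, plus strand) each held 1 such repeat, and 32 of 32851 windows of all genes (0.0974%) did. These windows are printed because they hold the repeat, and the capitals mark the half-sites.
Rarb: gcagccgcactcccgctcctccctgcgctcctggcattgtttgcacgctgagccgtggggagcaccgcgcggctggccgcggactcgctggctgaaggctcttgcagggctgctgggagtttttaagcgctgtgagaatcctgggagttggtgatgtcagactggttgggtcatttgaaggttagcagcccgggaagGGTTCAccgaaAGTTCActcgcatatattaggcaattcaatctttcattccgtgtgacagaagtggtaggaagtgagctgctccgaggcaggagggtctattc
Cyp26a1: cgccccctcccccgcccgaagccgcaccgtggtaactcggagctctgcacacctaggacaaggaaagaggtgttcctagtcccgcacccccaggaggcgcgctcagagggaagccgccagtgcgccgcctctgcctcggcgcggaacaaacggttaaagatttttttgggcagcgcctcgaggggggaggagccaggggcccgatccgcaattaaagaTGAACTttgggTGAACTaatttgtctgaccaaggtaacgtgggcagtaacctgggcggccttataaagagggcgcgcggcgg
The Rarb repeat reads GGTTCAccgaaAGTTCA on the strand of the gene and ends 36 bases before the start site. The Cyp26a1 repeat reads AGTTCAcccaaAGTTCA on the opposite strand and lies 15 bases before the start site. A match of letters is a description and no measurement of binding.

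In the control library each gene had its own place among the cell classes. Levels are compared within a gene across the cell classes. The pigment epithelium-like class also carried other markers, and Gja1 and Wls of the ciliary margin list were among its 10 leading genes. In control its pigment epithelium markers summed to 843 CPM, its ciliary margin markers to 818 CPM and its naive progenitor markers to 3034 CPM. Its name therefore does not place a gene in the pigment epithelium rather than the ciliary margin. Aldh1a1 was highest in pigment epithelium-like cells at 2067 CPM, followed by ciliary margin-like cells at 1412 CPM, lens-like cells at 612 CPM and naive progenitor-like cells at 596 CPM. The last pair could not be ordered, because the intervals of 588 to 636 CPM and 587 to 604 CPM overlapped. Along the path to neurons the level dropped to 149 CPM in neurogenic-like and 24.4 CPM in ganglion-like cells, the latter close to the 19.4 CPM of red blood-like cells, which should lack the gene and show free RNA.

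Aldh1a3, the ventral enzyme, had a narrower range. It was highest in ciliary margin-like cells (328 CPM, interval 312 to 343) and next in pigment epithelium-like cells (219 CPM, 207 to 231), with 67.3 CPM in naive progenitor-like cells and 15.1 CPM in neurogenic-like cells. In ganglion-like and lens-like cells it was at 3.4 and 7.30 CPM, against 1.45 CPM in red blood-like cells. Thus the lens-like cells were near the naive progenitor-like cells in Aldh1a1 but far below them in Aldh1a3.

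Rdh10, which acts one step earlier, was present at 145 CPM in pigment epithelium-like, 133 CPM in ciliary margin-like and 72.5 CPM in naive progenitor-like control cells. The first pair did not differ beyond their intervals (136 to 156 and 123 to 143 CPM). Cyp26a1 had the opposite order of these classes, with 48.0 CPM in naive progenitor-like, 30.4 CPM in ciliary margin-like and 17.0 CPM in pigment epithelium-like cells. It was thus the breakdown gene of the progenitors, while its neighbour Cyp26c1 had 4 UMIs in the whole control library and 1 in the DKO library.

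Dhrs3 was scarce in the retina, with 0.862 CPM in naive progenitor-like and 3.94 CPM in pigment epithelium-like control cells. Its highest level was outside the retina, in macrophage-like cells, at 73.0 CPM from 22 UMIs. Rarb was low everywhere, with 10.6 CPM in pigment epithelium-like, 5.51 CPM in ciliary margin-like and 5.20 CPM in naive progenitor-like control cells, and intervals of the last pair overlapped.

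**Figure D1:**
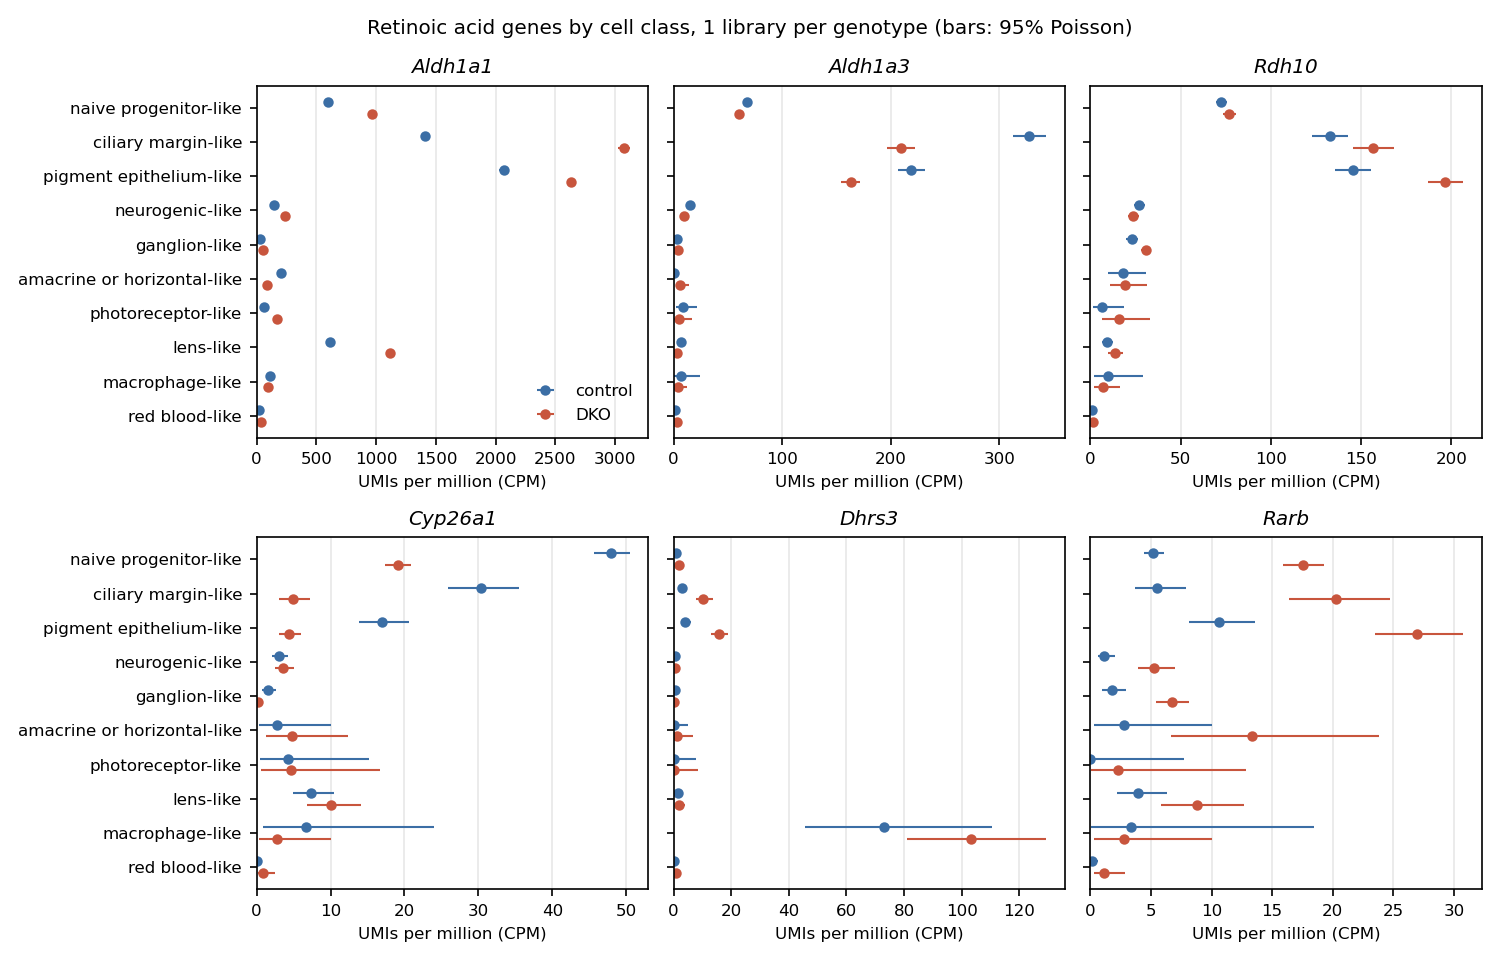
Levels of 6 members in CPM (x axes, linear, a scale for each gene) in 10 marker-named cell classes (rows), for control (blue) and DKO (red), 1 library each, with bars for 95% Poisson intervals. Aldh1a1, Aldh1a3 and Rdh10 are highest in ciliary margin-like and pigment epithelium-like cells, Cyp26a1 in naive progenitor-like cells and Dhrs3 in macrophage-like cells, and the DKO points of Rarb lie to the right of control in all retinal and lens rows.

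The receptor gene Rarb was the member that differed in one direction most widely. In naive progenitor-like cells it was at 5.20 CPM in control (163 UMIs) and 17.5 CPM in DKO (421 UMIs), a 3.37-fold higher level (log2 1.75, interval 1.49 to 2.02). It was also higher in ciliary margin-like (5.51 and 20.3 CPM, 3.68-fold), pigment epithelium-like (10.6 and 26.9 CPM, 2.54-fold), neurogenic-like (1.15 and 5.28 CPM, 4.59-fold), ganglion-like (1.76 and 6.70 CPM, 3.80-fold) and lens-like cells (3.89 and 8.77 CPM, 2.25-fold). The difference was thus past 2-fold and its interval clear of 0 in 6 of 6 classes with at least 20 UMIs, although after thinning to 2000 UMIs per cell the pigment epithelium-like log2 ratio was 0.62 (-0.23 to 1.53). The lens-like value rested on 16 and 28 UMIs, with an interval of log2 0.24 to 2.16. Red blood-like cells held 1 and 4 Rarb UMIs, or 0.112 and 1.10 CPM, below every class just named in its own library.

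Cyp26a1, which also carries the repeat, differed the other way in 3 of these classes. It was at 48.0 CPM in control and 19.1 CPM in DKO naive progenitor-like cells, 2.51-fold lower (log2 -1.33, interval -1.48 to -1.18). This value depended on the clustering, with log2 -0.73 at a higher resolution and -0.33 without integration, both short of 2-fold. In ciliary margin-like cells it was at 30.4 and 4.85 CPM, 6.27-fold lower, and in pigment epithelium-like cells at 17.0 and 4.35 CPM, 3.90-fold lower. In neurogenic-like cells (2.97 and 3.56 CPM) and lens-like cells (7.30 and 10.0 CPM) the intervals of the ratio held 0. So 2 genes known to be induced by retinoic acid stood on opposite sides of their control levels in the progenitors.

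Dhrs3 was higher in DKO in the same 3 classes in which Cyp26a1 was lower. It was at 0.862 and 1.83 CPM in naive progenitor-like cells (27 and 44 UMIs, 2.13-fold), at 2.85 and 10.3 CPM in ciliary margin-like cells (3.63-fold) and at 3.94 and 15.8 CPM in pigment epithelium-like cells (interval of the log2 ratio 1.35 to 2.71). In macrophage-like cells, with 73.0 and 103 CPM, the interval of the log2 ratio ran from -0.20 to 1.26 and held 0. Neurogenic-like, ganglion-like and lens-like cells had too few Dhrs3 UMIs to be counted.

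The make-up of some classes differed between the libraries as well. In ciliary margin-like cells the ciliary margin markers summed to 567 CPM in control and 1462 CPM in DKO, the pigment epithelium markers to 56.5 and 426 CPM and the naive progenitor markers to 3205 and 1789 CPM. In pigment epithelium-like cells the same lists summed to 818 and 2315 CPM, 843 and 1728 CPM, and 3034 and 1546 CPM. In lens-like cells the lens markers summed to 87283 and 42039 CPM, at median depths of 18266 and 10124 UMIs. The part of these shifts in the member differences of these classes was not tested.

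Among the synthesis genes, Aldh1a1 was higher in most classes and Aldh1a3 lower. Aldh1a1 was at 596 CPM in control and 964 CPM in DKO naive progenitor-like cells (1.62-fold, log2 0.69, interval 0.67 to 0.72), at 1412 and 3071 CPM in ciliary margin-like cells (2.18-fold) and at 2067 and 2632 CPM in pigment epithelium-like cells (1.27-fold). Lens-like cells had 612 and 1115 CPM (1.82-fold), neurogenic-like cells 149 and 236 CPM (1.58-fold) and ganglion-like cells 24.4 and 49.2 CPM (2.02-fold). Red blood-like cells, whose counts stand for free RNA, also differed, with 19.4 and 35.9 CPM (1.85-fold), and the part of free RNA in the ganglion-like difference was not tested. One class went the other way, since amacrine or horizontal-like cells had 205 CPM in control and 87.2 CPM in DKO.

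Aldh1a3 was at 67.3 and 60.4 CPM in naive progenitor-like cells, a log2 ratio of -0.16 (interval -0.25 to -0.06), and this direction changed with another clustering or with thinning (log2 0.09 at a higher resolution, 0.22 without integration and 0.06 after thinning). In ciliary margin-like cells it was at 328 CPM in control and 209 CPM in DKO (log2 -0.65, interval -0.76 to -0.53), and in pigment epithelium-like cells at 219 and 163 CPM (log2 -0.43). In lens-like cells it was past 2-fold lower, on 30 and 10 UMIs, at 7.30 and 3.13 CPM beside 1.45 and 2.76 CPM in red blood-like cells. Rdh10 was past 2-fold in no class. It was at 133 and 157 CPM in ciliary margin-like, 145 and 197 CPM in pigment epithelium-like and 22.9 and 30.6 CPM in ganglion-like cells, where the intervals were clear of 0, and at 72.5 and 77.1 CPM in naive progenitor-like cells, where it held 0.

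**Figure D2:**
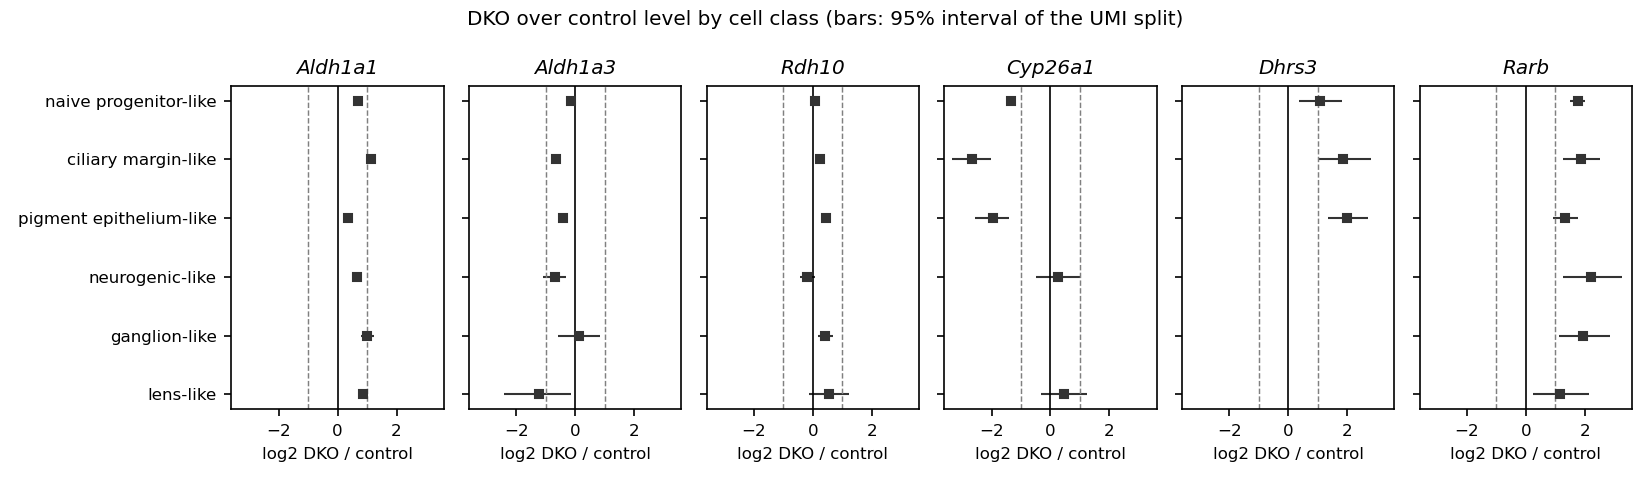
Log2 of the DKO over the control level (x axes) for 6 members in 6 cell classes (rows), with bars for the 95% interval from the split of UMIs between the libraries, a solid line at 0 and dashed lines at 2-fold. Rarb lies right of the 2-fold line in all 6 classes, Cyp26a1 lies left of it in the first 3 rows, and missing points had fewer than 20 UMIs.

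The counts of members past 2-fold are to be read against all genes with at least 20 UMIs in the class. In naive progenitor-like cells 2 of 6 counted members were higher in DKO (Rarb and Dhrs3) and 1 was lower (Cyp26a1), where 3.79% of 13743 genes were higher and 1.99% lower. In ciliary margin-like cells 3 of 6 were higher (Aldh1a1, Dhrs3 and Rarb) and 1 lower (Cyp26a1), with 3.87% and 1.39% of 11259 genes. In pigment epithelium-like cells 3 of 7 were higher (Aldh1a2, Dhrs3 and Rarb) and 1 lower (Cyp26a1), with 4.04% and 1.89% of 12223 genes. The Aldh1a2 UMIs there came from 2 control and 15 DKO cells, all with at least 3 mesenchyme markers. In lens-like cells 1 of 5 was higher (Rarb) and 1 lower (Aldh1a3), with 4.09% and 2.37% of 10427 genes.

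Neurons and their precursors held fewer counted members. In neurogenic-like cells 1 of 5 was higher (Rarb) and 0 lower, against 4.4% and 2.11% of 12261 genes. In ganglion-like cells 2 of 4 were higher (Rarb and Aldh1a1) and 0 lower, against 5.52% and 1.94% of 12494 genes. The median log2 ratio of the counted members was 0.39 in naive progenitor-like cells beside 0.02 for all genes, and 0.68 in ciliary margin-like cells beside 0.05.

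Shares of cells with a UMI were compared at 1 depth, since the DKO library was shallower, by drawing 2000 UMIs at random from each cell. An Aldh1a1 UMI was found in 46.5% of control (interval 44.8 to 48.3) and 54.0% of DKO naive progenitor-like cells (52.1 to 55.9), and without thinning in 73.6% and 71.6%, at median depths of 8301 and 7346 UMIs. In ciliary margin-like cells the thinned shares were 67.4% and 84.7%, and in lens-like cells 70.0% and 84.6%. Red blood-like cells gave 3.67% and 5.56%, at median depths of 8454 and 6337 UMIs.

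For Cyp26a1 the thinned share in naive progenitor-like cells was 8.20% in control (7.29 to 9.18) and 3.71% in DKO (3.04 to 4.48), whereas cells with a UMI held 1.24 and 1.15 UMIs on average. Rarb UMIs were found in 1.02% of control (0.706 to 1.42) and 3.6% of DKO naive progenitor-like cells (2.95 to 4.36). At such low levels a cell with a UMI holds nearly always 1 after thinning. Fewer cells with the RNA and less RNA per cell can therefore not be told apart for these genes. In red blood-like cells 0 of 1062 control and 0 of 540 DKO thinned cells had a Rarb UMI. With a floor of 3 cells set for a count of 0, in place of the exact interval, this allows shares of up to 0.282% and 0.556%.

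Aldh1a1 had enough UMIs to describe how many each cell held. After thinning, 6.14% of control and 11.7% of DKO naive progenitor-like cells had 6 or more Aldh1a1 UMIs. Among ciliary margin-like cells cells with 6 or more made up 21.6% in control and 43.8% in DKO, and among pigment epithelium-like cells 30.8% and 34%. The shares of cells with no Aldh1a1 UMI were 53.5% and 46.0%, 32.6% and 15.3%, and 36.3% and 26.2% in the same order.

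**Figure D3:**
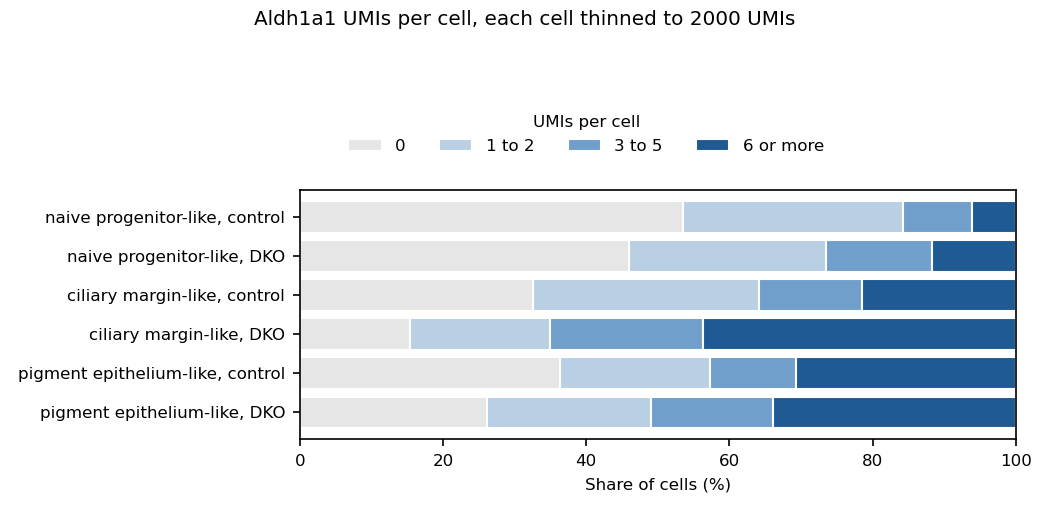
Share of cells (x axis, %) with 0, 1 to 2, 3 to 5 and 6 or more Aldh1a1 UMIs after thinning each cell to 2000 UMIs, for 3 cell classes in control and DKO, 1 library each. The darkest part, 6 or more UMIs, widens from 21.6% to 43.8% of ciliary margin-like cells between control and DKO.

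The enzymes divide the retina from dorsal to ventral, so progenitors were separated by 2 genes that were no members and took no part in the clustering. Cells with a UMI of Tbx5, a dorsal transcription factor, and none of Vax2, a ventral one, were called dorsally marked, and the reverse ventrally marked. In naive progenitor-like cells this gave 120 dorsally and 819 ventrally marked control cells and 171 and 501 DKO cells, while most cells had neither mark. In control cells Aldh1a1 was at 2179 CPM in dorsally marked, 654 CPM in unmarked and 279 CPM in ventrally marked cells. Aldh1a3 had the reverse order, with 17.5, 35.7 and 144 CPM.

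Both gradients had the same direction in the DKO library. Aldh1a1 was at 2695, 964 and 463 CPM and Aldh1a3 at 21.6, 38.9 and 138 CPM in dorsally marked, unmarked and ventrally marked DKO cells. The log2 ratio of dorsal over ventral Aldh1a1 was 2.96 in control (2.88 to 3.04) and 2.54 in DKO (2.47 to 2.61). With Tbx3 and Vax1 added to the marks it was 1.71 and 1.95, so which library had the steeper gradient depended on the marks. The log2 ratio of Aldh1a3 was -3.04 (-3.78 to -2.39) and -2.68 (-3.23 to -2.18). Aldh1a1 was therefore higher in DKO in each of the marked groups, and in ventrally marked cells by 463 against 279 CPM.

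Cyp26a1 was low on the ventral side. In control naive progenitor-like cells it was at 66.3 CPM in unmarked cells (62.8 to 69.8) and 48.0 CPM in dorsally marked cells (35.8 to 62.9). These intervals overlapped only at their ends. The level was lowest in ventrally marked cells at 7.14 CPM (5.52 to 9.08). In ciliary margin-like control cells the unmarked cells stood apart, with 57.9 CPM against 2.09 CPM in 38 dorsally and 6.05 CPM in 114 ventrally marked cells. In DKO the unmarked level was 24.9 CPM in naive progenitor-like and 6.76 CPM in ciliary margin-like cells, and the dorsally marked naive progenitor-like level was 9.16 CPM from 14 UMIs. Ventrally marked naive progenitor-like cells had 3.66 CPM in DKO, below the 7.14 CPM of control. Their interval (2.24 to 5.66) overlapped that of control (5.52 to 9.08) only at its end, which does not show equal levels. The dorsally marked and unmarked intervals of DKO and control were apart.

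Rarb showed no such pattern in DKO. Its DKO level was 18.3 CPM in dorsally marked, 18.2 CPM in unmarked and 15.2 CPM in ventrally marked naive progenitor-like cells, each above the control values of 10.2, 5.31 and 4.32 CPM. The intervals of the dorsally marked pair overlapped, since the control value rested on 11 UMIs. Rdh10 was at 117, 74.4 and 62.7 CPM in control and 97.5, 76.3 and 72.9 CPM in DKO, a shallow dorsal gradient in both.

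The axis genes themselves also differed between the libraries in naive progenitor-like cells. Vax2 was at 48.3 and 32.1 CPM in control and DKO, Tbx5 at 4.40 and 8.58 CPM, and Tbx2, another dorsal factor, at 39.3 and 19.4 CPM. Vax1, another ventral factor, went opposite to Vax2, with 1.15 and 6.54 CPM. The mix of dorsal and ventral cells in each library could not be measured, and its part in the unsplit differences was not tested, whereas the values within marks are those just given.

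**Figure D4:**
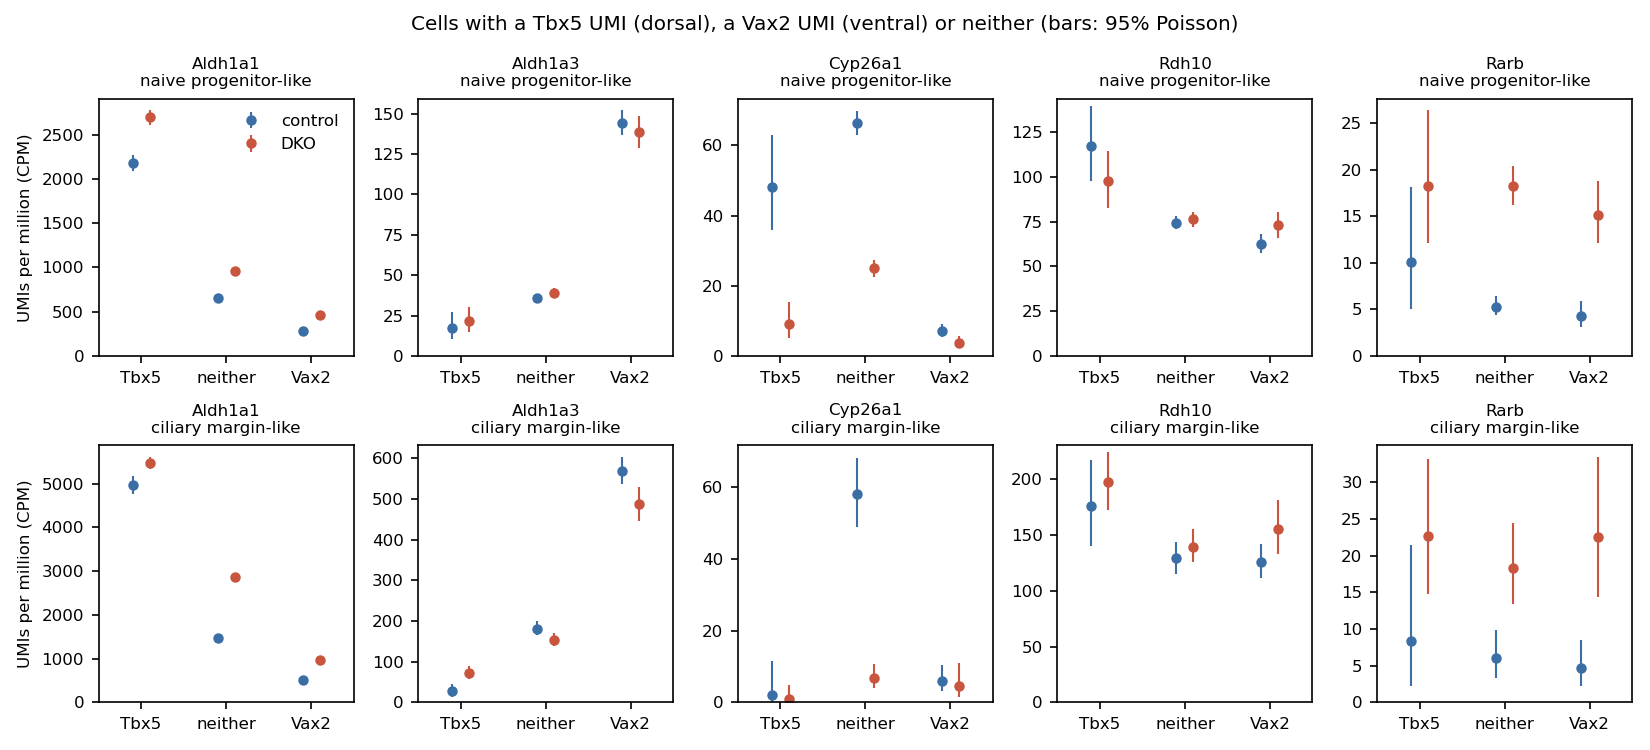
Levels in CPM (y axes, from 0) of 5 members in cells with a Tbx5 UMI, with neither mark and with a Vax2 UMI, for naive progenitor-like (upper row) and ciliary margin-like cells (lower row), control in blue and DKO in red, 1 library each, with 95% Poisson intervals. Aldh1a1 declines and Aldh1a3 climbs from Tbx5 to Vax2 cells in both libraries, and Cyp26a1 of control is low in Vax2 cells.

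Pairs of members were also compared within single thinned cells. Among control naive progenitor-like cells an Aldh1a3 UMI was found in 1.46% of 274 cells with Cyp26a1 (interval 0.399 to 3.70) and in 9.68% of 3067 cells without it (8.66 to 10.8). In DKO these shares were 4.81% of 104 cells (1.58 to 10.9) and 8.86% (7.81 to 9.99), so the intervals overlapped there. Aldh1a1 and Aldh1a3 differed in this between the libraries. In control an Aldh1a1 UMI was found in 38.2% of cells with Aldh1a3 (32.7 to 44.0) and 47.4% of those without (45.6 to 49.2), and in DKO in 66.4% (60.1 to 72.3) and 52.8% (50.9 to 54.8). Cells with Rdh10 and Aldh1a1 together were more frequent in both, since Rdh10 was found in 15.3% of control and 18.4% of DKO cells with Aldh1a1 and in 10.5% and 10.9% of those without. The DKO cells pool groups that differ in Aldh1a1, Aldh1a3 and Rdh10, as the split by Six3 below shows. The part of this pooling in the DKO shares was not tested.

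Cells of the DKO library were next divided by their Six3 level. That library was clustered alone, without members among the features, and whole subclusters with Six3 below 50% of the control level were called Six3-low. Of 2846 DKO naive progenitor-like cells 1388 (48.8%) were Six3-low, with Six3 at 119 CPM, and 1458 were Six3-retaining, with Six3 at 408 CPM, beside 307 CPM in unsplit control cells. Six6 was low in both DKO groups, at 40.9 and 50.2 CPM. The retaining level was above control (log2 0.41, interval 0.36 to 0.46), and the split itself takes the low subclusters out of the retaining group. The control also carried a null Six3 allele, whereas Six3F/F cells without a-Cre activity did not. In lens-like cells, without Six3-low cells, Six3 was at 176 CPM in control and 267 CPM in DKO. Neurogenic-like cells, with 39 of 1744 Six3-low, went the other way, with 314 and 295 CPM. The part of selection and of allele number was not tested. By the reach of a-Cre Six3-deleted cells lie in the periphery, but position was not measured and control cells could not be split in the same way, so position and Six3 cannot be told apart.

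The members divided into distinct patterns along this split. Cyp26a1 was at 2.86 CPM in Six3-low cells (38 UMIs, interval 2.03 to 3.93) and 39.1 CPM in Six3-retaining cells (421 UMIs), with 48.0 CPM in control, so the log2 ratio over control was -4.07 for the former and -0.29 for the latter. Aldh1a1 was near its control level in Six3-low cells, with 577 CPM in Six3-low, 1441 CPM in Six3-retaining and 596 CPM in control cells. Its log2 ratio over control was 1.27 in Six3-retaining cells (1.24 to 1.31) and -0.05 in Six3-low cells, but the latter value pooled unlike clusters and did not hold within each of them, as the cluster values show. Both comparisons share the control cells.

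Rarb was higher than control in both, with 19.8 CPM in Six3-low (17.4 to 22.3) and 14.8 CPM in Six3-retaining cells (12.6 to 17.3) against 5.20 CPM. Aldh1a3 was at 46.4 CPM in Six3-low and 77.6 CPM in Six3-retaining cells, on either side of the 67.3 CPM of control. Rdh10 was likewise at 56.9 and 102 CPM around 72.5 CPM, but the Six3-low value pooled unlike clusters, as the cluster values show. Dhrs3 was at 1.88 and 1.77 CPM from 25 and 19 UMIs, which did not differ beyond their intervals.

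Both groups of DKO cells also differed otherwise. The 9 naive progenitor markers summed to 2415 CPM in Six3-low, 6081 CPM in Six3-retaining and 5303 CPM in control cells, and Vax2 was at 39.7, 22.7 and 48.3 CPM, and the part of these shifts was not tested. The members were compared again within clusters and within marks, a choice made after the values had been seen. Six3-low cells made up 367 of 1092 DKO cells in cluster 0, 195 of 762 in cluster 3 and 826 of 992 in cluster 5, which is led by genes of mitosis. Aldh1a1 was lower in Six3-low than in Six3-retaining cells in each, with 906 and 1560 CPM in cluster 0, 1111 and 1536 CPM in cluster 3 and 342 and 864 CPM in cluster 5. Within clusters 0 and 3, however, the Six3-low level was above the control levels of 761 and 572 CPM, and in cluster 5 it was near the 354 CPM of control. Hence the near equality of Six3-low and control Aldh1a1 over all naive progenitor-like cells did not hold within clusters 0 and 3.

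Cyp26a1 was much lower in Six3-low cells within each cluster, with 1.82 and 33.6 CPM in cluster 0, 6.37 and 48.0 CPM in cluster 3 and 2.36 and 28.7 CPM in cluster 5. It was also lower within unmarked cells, with 3.43 CPM in Six3-low and 47.8 CPM in Six3-retaining cells, and within ventrally marked cells, with 1.84 and 7.85 CPM. Aldh1a1 was at 547 and 1407 CPM in unmarked, 1886 and 3382 CPM in dorsally marked and 397 and 615 CPM in ventrally marked cells. Aldh1a3 had no single direction, with 30.6 and 85.5 CPM in cluster 0 but 105 and 66.2 CPM in cluster 3. Rdh10 in Six3-low cells was at 81.7 CPM in cluster 0, 70.6 CPM in cluster 3 and 45.6 CPM in cluster 5. Control levels there were 81.8, 74.9 and 53.2 CPM. These intervals overlapped in each cluster, in cluster 5 only at their ends, which does not show equal levels. The Six3-retaining levels of Rdh10 were 109, 102 and 84.8 CPM. Rarb was above control in Six3-low cells of every cluster, with the lowest at 16.2 CPM in cluster 3 and the highest at 21.5 CPM in cluster 0, against control levels of 4.90 and 6.12 CPM there.

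**Figure D5:**
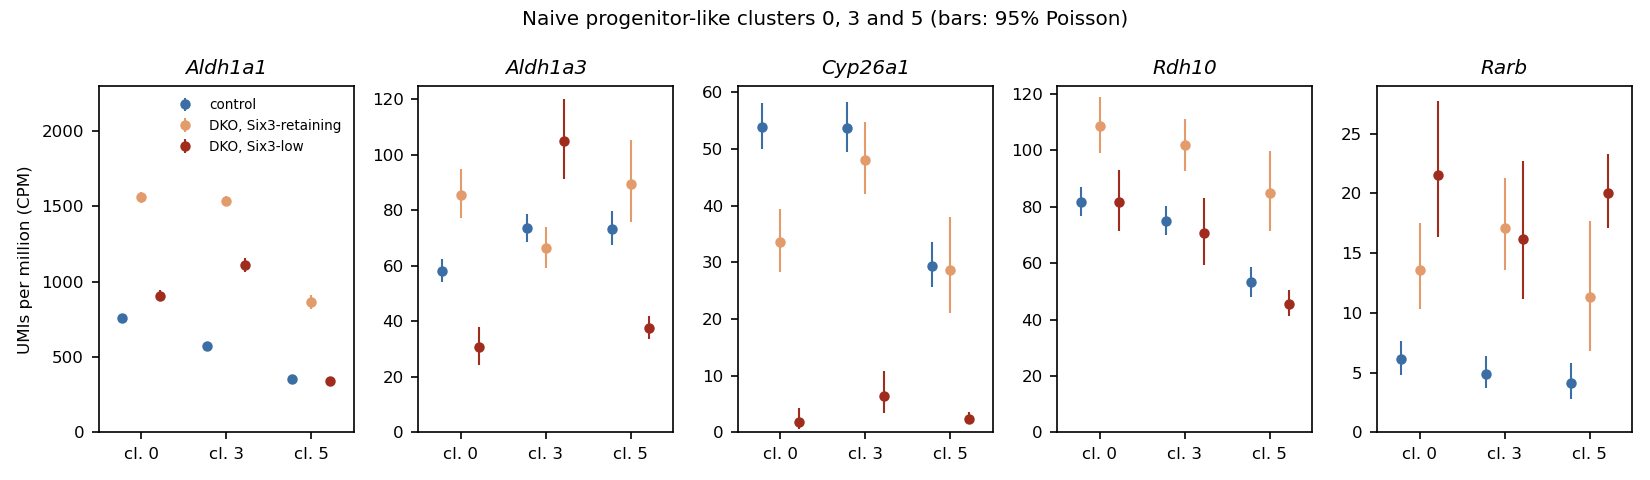
Levels in CPM (y axes, from 0) of 5 members in the naive progenitor-like clusters 0, 3 and 5 for control cells (blue), Six3-retaining DKO cells (orange) and Six3-low DKO cells (dark red), 1 library per genotype, with 95% Poisson intervals. Cyp26a1 is below 10 CPM in Six3-low cells of each cluster, Aldh1a1 is highest in Six3-retaining cells, and Rarb is above control in both DKO groups.

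In pigment epithelium-like cells the same split left 644 Six3-low and 308 Six3-retaining DKO cells. Aldh1a1 was at 2058 and 3888 CPM, beside 2067 CPM in control, Aldh1a3 at 77.2 and 351 CPM, beside 219 CPM, and Dhrs3 at 19.0 and 8.71 CPM, beside 3.94 CPM. These groups differed in identity, since the 7 pigment markers summed to 2445 CPM in Six3-low and 161 CPM in Six3-retaining cells, and to 843 CPM in control. The ciliary margin markers in this class summed to 2819, 1211 and 818 CPM and the mesenchyme markers to 128, 3.96 and 37.3 CPM in the same order. The part of this shift in the member levels was not tested. Among ciliary margin-like cells only 36 of 352 were Six3-low, too few to describe, and they enter only the list of alternatives at the end.

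Aldh1a2, the mesenchymal synthesis gene, gave 9 UMIs in control and 41 in DKO, of which 7 and 39 were in pigment epithelium-like cells. These came from 2 control and 15 DKO cells, with at most 5 UMIs in a cell. All of these cells, 2 of 2 and 15 of 15, had at least 3 of the 7 mesenchyme markers (such as Col1a1 and Foxc1), against 1 of 598 other control and 12 of 937 other DKO cells of the class. The mesenchyme list summed to 37.3 CPM in control and 89.2 CPM in DKO pigment epithelium-like cells, with 7 of 7 markers detected in control. All 39 DKO UMIs were in Six3-low cells. The mesenchyme list summed to 128 CPM in Six3-low and 3.96 CPM in Six3-retaining cells of this class, so cell identity and Six3 level cannot be told apart here. Of the 4 control Cyp26c1 UMIs 3 were in naive progenitor-like cells, and the 1 DKO UMI was in a lens-like cell.

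The wider pathway was described by 37 further genes of retinol handling, retinoic acid transport, receptors and response. In naive progenitor-like cells 24 of them were counted, of which 3 were past 2-fold higher in DKO (Nr2f2, Rxrg and Ttr) and 1 lower (Tgm2), beside 3.79% and 1.99% of all genes. Nr2f2, an orphan nuclear receptor, was the one with many UMIs, at 73.0 CPM in control and 161 CPM in DKO (log2 1.14). It was also higher in ciliary margin-like (88.6 and 262 CPM) and pigment epithelium-like cells (131 and 276 CPM). Rxrg, a receptor partner, and Ttr, a carrier protein of the blood, rested on 26 and 23 UMIs and had intervals that held 0. Tgm2, a transglutaminase known to respond to retinoic acid, was at 1.69 and 0.791 CPM.

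The carriers of retinoic acid inside the cell were lower in DKO naive progenitor-like cells, short of 2-fold. Crabp1 was at 129 and 77.5 CPM and Crabp2 at 221 and 124 CPM, while Fabp5 was at 878 and 950 CPM. Crabp1 differed the other way in neurogenic-like cells, with 43.5 and 92.5 CPM. Stra6, the uptake receptor for retinol, was at 50.8 and 104 CPM in lens-like cells, the one pathway gene past 2-fold there.

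For the receptor genes Rara and Rxrb and the corepressor gene Ncor1 the interval of the ratio held 0 in naive progenitor-like cells. Rara was at 32.5 and 33.3 CPM, Rxrb at 23.6 and 23.8 CPM and Ncor1 at 334 and 329 CPM. Nrip1, a receptor cofactor, was at 234 and 179 CPM and Nr2f1, the relative of Nr2f2, at 594 and 522 CPM. Of the other enzymes, Adh5 was at 177 and 197 CPM, and Cyp26b1, the remaining Cyp26 gene, had 8 UMIs in each library in naive progenitor-like cells.

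Genes whose levels over 41 groups of cluster and library were most like those of a member were named by Pearson's r of log2(CPM + 10), as a description, since groups of 1 library share depth and free RNA. For Aldh1a1 these were Cnksr3 (r = 0.90), Trpm3 and Pawr, and for Aldh1a3 Efhd1 (r = 0.95), Rhoj and Wfdc1. For Cyp26a1 they were Gm26771 (r = 0.91), Sox8 and Gcnt4, for Rdh10 Pdzrn3 (r = 0.91), Gpx7 and Lrrc4c, and for Rarb Car5b (r = 0.85), Aldh1l1 and Lrp4. Dhrs3 followed Ifitm1 (r = 0.97), Emp3 and Icam1, with its highest level in macrophage-like cells.

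The members were also measured in clusters found almost only in DKO. In 597 ectopic neuron-like cells, led by Rspo3, Tbr1, Lhx9 and Eomes, Aldh1a1 was at 42.5 CPM and Rdh10 at 10.2 CPM, with 1 Cyp26a1 UMI. In 413 DKO cells of an unnamed cluster led by Fabp7 and Sox21, Aldh1a1 was at 121 CPM, Rdh10 at 54.1 CPM and Rarb at 16.7 CPM (12.1 to 22.5), the last near the 17.5 CPM of DKO naive progenitor-like cells.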

How the data were processed

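The authors mapped reads to mm10 with Cell Ranger (version 3.1.0 in the submitters' processing notes) and deposited, for each library, UMI counts per gene and cell as raw whole numbers. The counts include RNA that floats free between cells. The filter of the study was applied (more than 200 and fewer than 6000 genes, with a mitochondrial share below 20%). Libraries were integrated with Seurat 5.3.0 (R 4.3.3; 2000 variable genes, 20 dimensions, resolution 0.5), with members, related genes, Six3 and Six6 left out of the features. Clusters were named where 3 or more markers of a list were detected and 75% of the list was higher than in other cells, unless over 50% of the cells were called doublets, the median depth was below that of the library divided by 3, or another list had more of its markers among the 10 leading genes. Doublets were called with Scrublet in scanpy 1.11.5 (score above 0.2105; 311 control and 375 DKO cells) and kept. Levels are summed UMIs per 1000000 UMIs (CPM) with exact Poisson intervals, ratios have intervals from the exact binomial split of UMIs, and shares of cells have exact binomial intervals (Python 3.11.15, scipy 1.17.1). Only the ratio intervals were checked, on simulated Poisson counts, which hold no spread between cells or embryos. A gene was counted with at least 20 UMIs over both libraries. With 1 library per genotype no test was run. Depth was 80511672 control and 81056488 DKO UMIs after filtering.

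All members were named. Pathway genes were named from a fixed list where past 2-fold in naive progenitor-like cells or at 100 CPM in a class, and Rara, Rxrb and Cyp26b1 were added once values were known, and some listed genes are not reported here. Genes like a member were the 3 with the highest correlation. Members and lists were chosen with earlier results of these data known. The alternatives were other clustering, depth, totals and thresholds, and Six3-low cells alone.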

Additional observations from a re-analysis of the deposited data

Results flagged for a closer look

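Aldh1a1 differed in opposite directions between cell classes. Its log2 ratio of DKO over control was -1.23 (interval -1.66 to -0.82) in amacrine or horizontal-like cells, which held 148 control and 72 DKO UMIs in 126 and 193 cells, whereas it was above 0, with intervals clear of 0, in 8 other classes. The difference between the classes was not tested, because each genotype had 1 library. In these cells the naive progenitor markers summed to 902 CPM in control and 537 CPM in DKO, the neurogenic markers to 1473 and 696 CPM, and the red blood markers to 8556 and 24590 CPM, and the part of these shifts in the Aldh1a1 value was not tested. The thinned share of amacrine or horizontal-like cells with an Aldh1a1 UMI was 12.9% in control (7.56 to 20.1) and 10.8% in DKO (6.69 to 16.1), so the shares overlapped. In these thinned cells 2 control cells and 0 DKO cells had 6 or more Aldh1a1 UMIs, while 108 of 124 control cells had none.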

How the results depend on the processing

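No paired analysis was possible because there was 1 library per genotype. Of 313 ratios of single members under the alternatives, 207 stayed within their interval, 98 moved beyond it and 8 changed sign. Aldh1a3 changed sign in naive progenitor-like cells at resolution 1 (log2 0.086), without integration (0.22) and after thinning (0.059), and in neurogenic-like cells without integration (0.39). With Six3-low DKO cells alone, Aldh1a1 changed sign in naive progenitor-like (-0.047) and pigment epithelium-like cells (-0.0064). Rdh10 did so in ganglion-like (-1.08) and in 36 ciliary margin-like cells (-0.27). Of 401 ganglion-like cells called Six3-low, 309 came from a subcluster with Six3 at 316 CPM. That is low against 741 CPM in control ganglion-like cells but near the 307 CPM of control naive progenitor-like cells. These cells thus need not lack Six3. The cause was not tested.

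Counts of members past 2-fold moved as follows. Shares of all genes are given above only for the main setting at 2-fold. The counts below therefore have no share beside them and are not read as results about the members. After thinning, the count of higher members was 1 in naive progenitor-like, ganglion-like and pigment epithelium-like cells and 0 in neurogenic-like, ciliary margin-like and lens-like cells, and of lower members 1 in neurogenic-like and 0 in lens-like cells. Fewer genes then reached 20 UMIs, and Aldh1a1 was at log2 0.91 in ciliary margin-like, Rarb at 0.62 in pigment epithelium-like and Aldh1a3 at -1.4 in neurogenic-like cells. On the scale of log2 of the mean count per 10000 plus 1, which compresses low genes, no member was past 2-fold, so 0 were higher in 6 classes and 0 lower in naive progenitor-like, ciliary margin-like, pigment epithelium-like and lens-like cells. At resolution 1 the count of lower members was 0 in naive progenitor-like and pigment epithelium-like cells, and without integration it was 0 in naive progenitor-like cells, where Cyp26a1 was at log2 -0.73 and -0.33, while 2 were higher in neurogenic-like cells. In Six3-low cells alone, 3 were higher and 1 lower in neurogenic-like (39 cells) and 1 and 1 in ganglion-like cells (mostly of the subcluster named above). In the same setting 1 was higher and 2 lower in ciliary margin-like cells (36 cells), and 2 lower in pigment epithelium-like cells. At 1.5-fold, 2 were higher and 1 lower in neurogenic-like, 2 lower in ciliary margin-like and 2 higher in lens-like cells. In ganglion-like cells 1 was higher without doublets and with other totals, where Aldh1a1 was at log2 0.98 and 0.96. With a floor of 50 UMIs, 0 were higher and 0 lower in lens-like cells.

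Depth limited Dhrs3, Rarb and Cyp26a1 outside the progenitors, and marking by Tbx5 or Tbx3 against Vax2 or Vax1 moved the dorsal over ventral log2 ratio of Aldh1a1 to 1.71 in control and 1.95 in DKO and that of Cyp26a1 in DKO from 1.32 to 3.46.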
